A study of Mus musculus with 8 samples.

Results

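Thioacetamide (TAA), a hepatotoxic compound, was compared with its vehicle, phosphate-buffered saline (PBS), in the livers of fed mice. The comparison takes in 4 of the 8 livers of the series, chosen by their treatment labels, with 2 livers in each group. All were from wild-type male C57BL/6J mice aged 8 to 9 weeks, which received TAA at 200 mg/kg by intraperitoneal injection or the same volume of sterilized PBS, and livers were taken 24 h after the dose. The other 4 livers came from fasted mice and were not used. Total RNA of whole liver tissue was sequenced, and reads were counted per gene. Liver RNA comes mostly from hepatocytes, which hold the drug-metabolising enzymes, the urea cycle and the synthesis of plasma proteins, and which oxidise TAA itself into reactive products, chiefly in the cells around the central vein. The remainder comes from endothelial, stellate, biliary and immune cells. The tissue label was checked with albumin (Alb), the main hepatocyte product, which stood at 45629 and 69403 CPM (read counts per library size, scaled between livers by TMM, the trimmed mean of M-values) in the PBS livers and at 31410 and 68298 CPM after TAA. Of 30 markers of neighbouring tissues, 23 did not pass the filter on low counts, among them Prss1 and Cpa1 of the pancreas, Adipoq of fat and Acta1 of muscle, which had 0 to 10 counts in every liver. Of the 7 tested, Vil1 was called higher and Fabp2 lower after TAA, and their summed level was 66.6 and 73.8 CPM in PBS livers and 17.1 and 31.5 CPM in TAA livers, mostly from Fabp2, an intestinal fatty acid binding protein. Neither call held without PBS liver 1 or 2 (adjusted p = 0.052 and 0.075 for Fabp2, 0.088 and 0.066 for Vil1), and that of Vil1 was also lost without TAA liver 1 or 2 (0.073 and 0.074).

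Counts in named genes came to 35711238 to 41453751 per liver, and 16847 of 51826 genes passed the filter on low counts. By edgeR's quasi-likelihood test with Benjamini-Hochberg adjustment, 2031 genes were higher after TAA and 2317 were lower at an adjusted p under 0.05, which is 12.1% and 13.8% of the genes tested. Among these, 1348 higher and 1603 lower genes also changed more than 2-fold. The levels of both TAA livers lay on one side of both PBS livers for 69.9% of all tested genes, 35.9% higher and 34.0% lower, so such separation alone marks little. In the text, a gene rose or fell only where it passed the adjusted test, and the shares of 12.1% and 13.8% are the ones against which the counts of each group of genes are to be read. In bulk tissue, fewer cells of a type and less RNA per cell cannot be told apart.

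The 2 livers of a group were close to each other. Over 13528 genes with a mean of at least 1 CPM, PBS livers 1 and 2 had a Pearson r of 0.973 across genes on the log2 scale, and 5.02% of the genes differed more than 2-fold between them. TAA livers 1 and 2 had an r of 0.967 with 6.57% of genes over 2-fold. Between a PBS and a TAA liver, r was 0.859 to 0.873 and 24.4% to 28.1% of the genes differed more than 2-fold. Genes are not independent replicates, so these values only describe the livers. The first principal component held 75.1% of the variance and separated the groups, the second (13.1%) separated the TAA livers from each other, and the third (11.8%) the PBS livers.

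**Figure D1:**
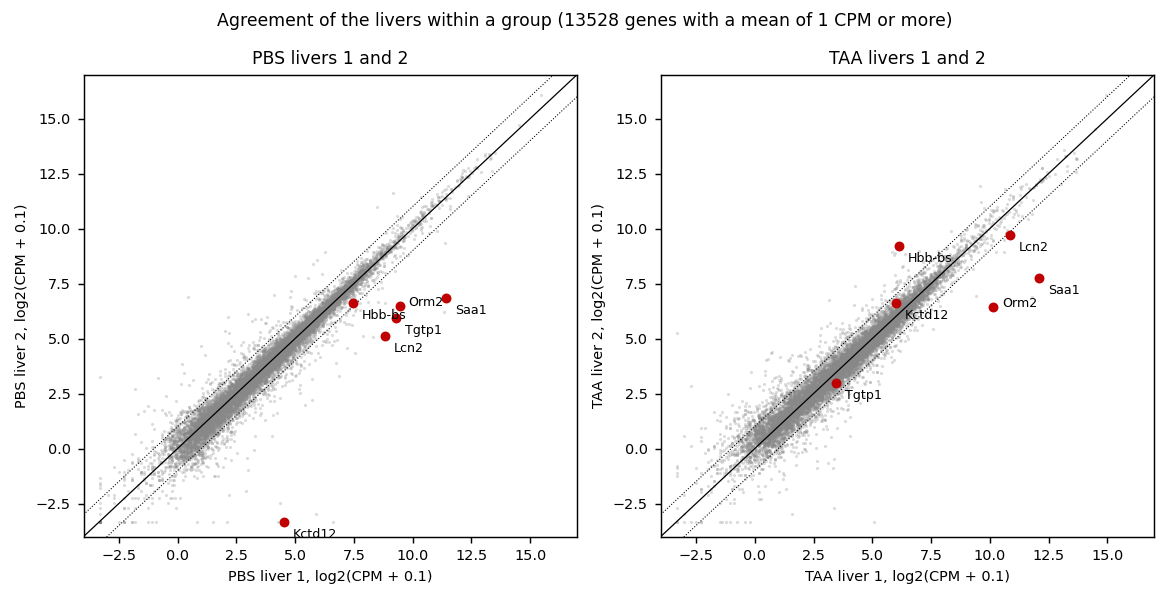
Levels of 13528 genes, as log2(CPM + 0.1), in liver 1 (horizontal axis) against liver 2 (vertical axis) of the PBS group (left) and the TAA group (right). The solid line marks equal levels and the dotted lines a 2-fold difference, which 5.02% of genes exceeded in PBS livers and 6.57% in TAA livers. Red points are labelled genes, chosen after their values were seen because their livers differed in at least one group.

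Some gene groups did differ between livers that shared a treatment. The serum amyloid gene Saa1, an acute phase protein, stood at 2764 and 114 CPM in PBS livers 1 and 2 and at 4413 and 216 CPM in TAA livers 1 and 2. Saa2 (2555 and 72.6 CPM, then 3592 and 120 CPM) and Orm2 (699 and 88.9 CPM, then 1134 and 85.2 CPM) had the same split between the livers numbered 1 and those numbered 2. In these 3 genes the groups overlapped, and none was called. PBS liver 1 also held more interferon-inducible RNA than PBS liver 2, with Tgtp1, an interferon-induced GTPase, at 617 against 61.8 CPM. In the TAA group, liver 2 held more globin RNA, with Hbb-bs at 587 CPM against 69.6 CPM in liver 1, and the PBS livers lay between them at 176 and 99.1 CPM. A further few genes (Gm45717 and Kctd12 in PBS liver 2, Gm20431 in TAA liver 1, Klhdc7a in TAA liver 2) had 0 counts in 1 liver and 22.7 CPM or more in its partner, and Gm45717, Gm20431 and Kctd12 share most of their exonic bases with other genes, so their counts are uncertain.

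Each liver was therefore left out in turn. With 1 liver left in a group, its spread is assumed to be like that of the other group, and fewer livers make calls rarer. A call lost in such a fit therefore does not show that it depended on the liver left out. Without PBS liver 1, 459 genes (2.59%) were called higher and 667 (3.76%) lower. Without PBS liver 2 the counts were 322 (1.81%) and 415 (2.33%), without TAA liver 1 they were 1498 (8.45%) and 1722 (9.71%), and without TAA liver 2 they were 1406 (7.99%) and 1869 (10.6%). Counts of a gene group in these fits are to be read against these shares. In all 4 of these fits, 274 genes were called higher and 332 lower. These are referred to as calls that held in every leave-one-out fit. No gene called in the full comparison was called in the opposite direction in any of them.

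Among higher genes with a mean of at least 10 CPM, the top 10 included Sprr1a, Fosl1, Sult1e1, Fosb, Cdkn1a, Arc, Gm45774, Tnfrsf12a and Gadd45b, of which Fosl1, Fosb and Arc are immediate early genes. Cdkn1a, which encodes the cell cycle inhibitor p21, stood at 3.37 and 2.52 CPM in PBS livers and at 212 and 239 CPM after TAA (log2 fold change 6.26, approximate SE 0.24, adjusted p = 0.0015). The call for Gm45774 cannot be separated from that for Mt2, since it covers 73.5% of the exonic bases of Mt2 on the opposite strand and no source states that strand was used in counting. Fosl1 likewise shares 57.2% of its exonic bases with Ccdc85b on the opposite strand, and Ccdc85b stood at a log2 fold change of -0.39 and was not called.

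Under the same limit of 10 CPM, the 10 lower genes of largest fold change were Gvin1, Cyp8b1, Gbp10, Nrep, Gbp11, BC023105, Nxpe2, Cyp7a1, Tgtp1 and Clec2h, and 4 of them (Gvin1, Gbp10, Gbp11 and Tgtp1) encode interferon-inducible GTPases. Gvin1, a very large interferon-induced GTPase, had 219 and 134 CPM in the PBS livers and 0.204 and 0.210 CPM after TAA (log2 fold change -9.71, approximate SE 0.40, adjusted p = 0.0015). Tgtp1 and BC023105 lost their calls without either TAA liver, with adjusted p values of 0.346 to 0.410. Cyp7a1, the rate-limiting enzyme of bile acid synthesis, lost its call without PBS liver 1 or 2 (adjusted p = 0.091 and 0.094). Gvin1, the Gbp genes and Tgtp1 belong to families with near-identical copies, so their reads may be split or discarded differently from those of single-copy genes.

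The largest gains in mean CPM were those of the fibrinogen chains Fga, Fgb and Fgg, followed by mt-Atp6, the keratins Krt8 and Krt18, the metallothioneins Mt1 and Mt2, and the protease inhibitors Serpina3n and Serpina3m. Fga stood at 4203 and 4515 CPM in the PBS livers and at 13427 and 9293 CPM after TAA (adjusted p = 0.0216). The 3 fibrinogen genes lost their calls without either PBS liver, at adjusted p values of 0.149 to 0.213, and so did Serpina3n and Serpina3m, at 0.052 to 0.113. Fgg also lost its call without TAA liver 1 (adjusted p = 0.071). Krt8 rose from 241 and 209 CPM to 2964 and 2734 CPM (log2 fold change 3.66, approximate SE 0.23, adjusted p = 0.0023) and Krt18, its partner in the hepatocyte keratin filament, from 195 and 159 CPM to 2400 and 2165 CPM. Both calls held in every leave-one-out fit.

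The largest loss was that of Cyp2e1, the cytochrome P450 that oxidises ethanol, acetaminophen and TAA. It had 6698 and 7111 CPM in the PBS livers and 790 and 2369 CPM in TAA livers 1 and 2 (log2 fold change -2.13, approximate SE 0.53, adjusted p = 0.0386), and the call was lost without PBS liver 1 or 2 (adjusted p = 0.126 and 0.151). The next largest losses included those of Mug1, Cat, Ces3a, Cps1, Mat1a, Plg and Ass1, which encode secreted proteins and enzymes of the urea cycle and of methionine, peroxide and ester metabolism. None of these 8 genes kept its call without PBS liver 1 or without PBS liver 2, where their adjusted p values were 0.053 to 0.208.

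**Figure D2:**
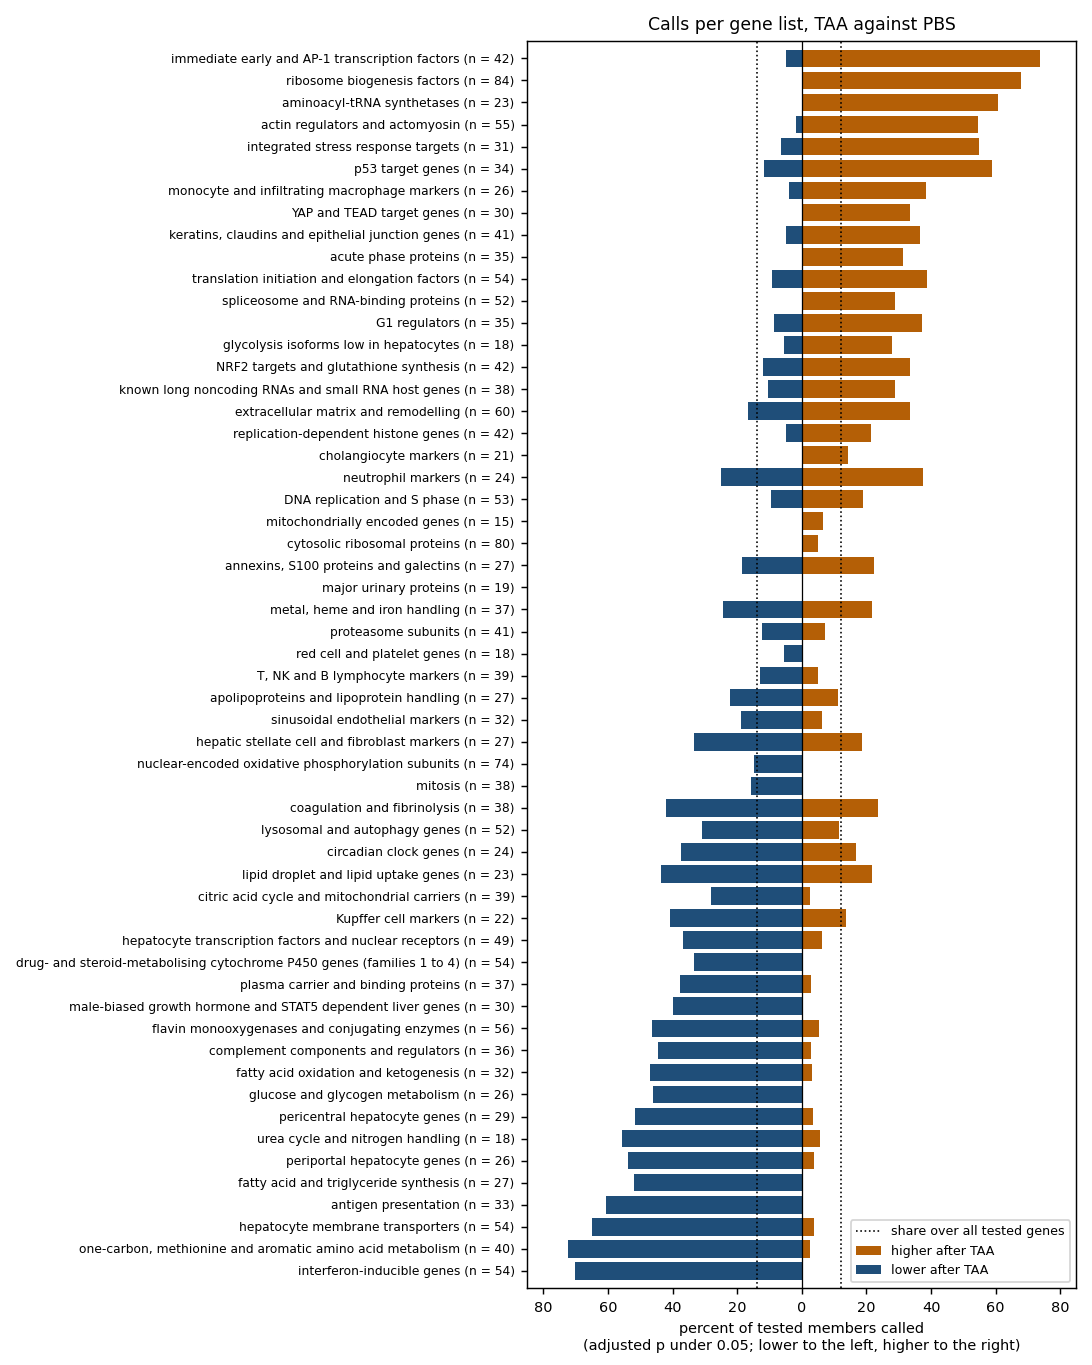
Share of the tested members of each gene list that were called lower (blue, to the left) or higher (orange, to the right) after TAA, by the adjusted edgeR test. Dotted lines mark the shares over all tested genes, 13.8% lower and 12.1% higher, and n is the number of members tested. Immediate early genes and ribosome biogenesis factors stand at the higher end and interferon-inducible genes at the lower end.

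Immediate early genes, many of which encode transcription factors, are induced within minutes of a signal, and their RNA is mostly short-lived. Of 42 tested, 31 rose and 2 fell, and the median log2 fold change was 1.99 against 0.03 over all genes. Fos, a subunit of the AP-1 transcription factor, stood at 3.67 and 2.95 CPM in the PBS livers and at 129 and 166 CPM after TAA (log2 fold change 5.47, approximate SE 0.23, adjusted p = 0.0015). Klf6, a zinc finger factor, rose from 19.2 and 13.2 CPM to 181 and 233 CPM (adjusted p = 0.0028). Jun, the partner of Fos, rose from 100.5 and 71.1 CPM to 386 and 635 CPM, and its adjusted p was 0.065 without PBS liver 2. The members that fell were Klf15, a fasting-responsive factor of the liver, and Mafg. Without PBS liver 2 their adjusted p values were 0.057 and 0.093, and Mafg was not called without PBS liver 1 either (0.082). Of the 31 calls, 20 held in every leave-one-out fit, and the higher count was 22 without PBS liver 1 and 20 without PBS liver 2. The dual-specificity phosphatases, which dephosphorylate MAP kinases and so act in their feedback, had 9 of 19 members higher and 1 lower, and Dusp5 rose from 2.04 and 1.10 CPM to 56.3 and 74.1 CPM. The phosphatase count was 4 without PBS liver 1 and 3 without PBS liver 2.

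Target genes of p53, the factor that halts or kills damaged cells, rose in 20 of 34 cases and fell in 4, with a median log2 fold change of 1.01. Mdm2, the ubiquitin ligase of p53, stood at 26.9 and 23.5 CPM in PBS livers and at 59.2 and 65.9 CPM after TAA (log2 fold change 1.31, approximate SE 0.15, adjusted p = 0.0055). Eda2r, a member of the TNF receptor family, rose from 0.107 and 0.268 CPM to 4.78 and 5.14 CPM, and Bax, which opens the outer mitochondrial membrane, from 13.02 and 11.2 CPM to 36.8 and 39.97 CPM. Of the 20 calls, 7 held in every leave-one-out fit (Cdkn1a, Btg2, Gdf15, Ddit4, Bax, Tnfrsf10b and Eda2r), with 11 higher without PBS liver 1 and 8 without PBS liver 2, while Mdm2 had an adjusted p of 0.056 without PBS liver 2.

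Metal and redox genes moved in both directions. The metallothioneins bind zinc and copper. Mt1 stood at 115 and 129 CPM in the PBS livers and at 1818 and 1708 CPM after TAA (log2 fold change 3.85, approximate SE 0.22, adjusted p = 0.0021). Mt2 stood at 61.8 and 70.9 CPM and at 1504 and 1791 CPM, and both calls held in every leave-one-out fit. Heme oxygenase Hmox1, which breaks heme down, rose from 44.7 and 36.6 CPM to 285 and 397 CPM, and Alas1, the first enzyme of heme synthesis in liver, fell from 1017 and 1148 CPM to 278 and 295 CPM (log2 fold change -1.92, approximate SE 0.20, adjusted p = 0.0046). In the list of 37 metal, heme and iron genes, 8 rose and 9 fell, and without either PBS liver 5 were higher and 2 lower. Among 42 targets of NRF2, the main factor of the oxidant response, 14 rose and 5 fell, with a median of 0.26. Srxn1, which repairs oxidised peroxiredoxins, rose from 89.4 and 50.5 CPM to 395 and 539 CPM, whereas Nqo1, often used as the marker of NRF2, had 14.4 and 9.6 CPM in PBS livers and 11.7 and 23.7 CPM in TAA livers and was not called. The higher NRF2 count was 7 without PBS liver 1 and 5 without PBS liver 2.

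Targets of the integrated stress response, which follows amino acid shortage or protein misfolding, had 17 of 31 members higher and 2 lower. Ddit3, a stress transcription factor, rose from 6.6 and 5.0 CPM to 25.3 and 32.8 CPM (adjusted p = 0.0043) and Slc7a11, the cystine importer, from 0.134 and 0.161 CPM to 4.88 and 4.51 CPM. Trib3 and Nupr1, further targets, differed by log2 fold changes of -0.45 and 0.33 and were not called. Without PBS liver 1 the higher count was 8, and without PBS liver 2 it was 4.

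The promoters of some of these genes hold the letters to which stress-responsive factors bind. The windows run from 250 bases before to 50 bases after the transcription start as RefSeq gives it on GRCm38.p6, and 8967 tested genes had exactly 1 window matched by symbol. Matches were searched on both strands and are printed in capitals within lower-case sequence. The AP-1 site was taken as TGANTCA, and 2 genes with a pair of matches are shown. Sprr1a, a cornified envelope protein of stressed epithelium, had 0 and 2 counts in PBS livers and 69.2 and 61.1 CPM after TAA, and its window is at chr3:92485832-92486131 on the minus strand. The window of Srxn1 is at chr2:152105274-152105573 on the plus strand.
Sprr1a: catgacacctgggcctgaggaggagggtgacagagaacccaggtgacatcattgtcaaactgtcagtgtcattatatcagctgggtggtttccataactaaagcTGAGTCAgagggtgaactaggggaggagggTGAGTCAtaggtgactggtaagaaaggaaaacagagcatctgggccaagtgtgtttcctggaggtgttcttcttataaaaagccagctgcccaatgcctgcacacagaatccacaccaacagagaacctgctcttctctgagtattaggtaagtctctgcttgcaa
Srxn1: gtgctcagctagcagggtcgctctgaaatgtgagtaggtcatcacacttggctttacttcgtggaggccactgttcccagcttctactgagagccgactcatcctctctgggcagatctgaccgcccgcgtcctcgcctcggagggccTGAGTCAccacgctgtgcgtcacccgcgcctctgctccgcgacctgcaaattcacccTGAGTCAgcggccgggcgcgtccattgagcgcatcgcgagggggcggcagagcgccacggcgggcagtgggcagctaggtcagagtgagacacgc
An AP-1 site stood in 5.33% of all 8967 windows, in 6.31% of the 1172 windows of genes that rose and in 6.14% of the 1303 windows of genes that fell.

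The metallothionein windows are shown for the metal response element, to which the zinc-sensing factor MTF1 binds, taken as TGCGCNC or TGCACNC. Mt1 has 3 matches at chr8:94178839-94179138 and Mt2 has 4 at chr8:94172368-94172667, both on the plus strand, and the genes are neighbours on chromosome 8.
Mt1: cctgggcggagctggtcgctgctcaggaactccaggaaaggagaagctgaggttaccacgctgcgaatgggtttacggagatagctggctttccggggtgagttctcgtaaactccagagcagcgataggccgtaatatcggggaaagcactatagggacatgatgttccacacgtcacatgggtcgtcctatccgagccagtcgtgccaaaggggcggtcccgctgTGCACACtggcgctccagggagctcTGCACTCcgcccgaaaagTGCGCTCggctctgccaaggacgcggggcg
Mt2: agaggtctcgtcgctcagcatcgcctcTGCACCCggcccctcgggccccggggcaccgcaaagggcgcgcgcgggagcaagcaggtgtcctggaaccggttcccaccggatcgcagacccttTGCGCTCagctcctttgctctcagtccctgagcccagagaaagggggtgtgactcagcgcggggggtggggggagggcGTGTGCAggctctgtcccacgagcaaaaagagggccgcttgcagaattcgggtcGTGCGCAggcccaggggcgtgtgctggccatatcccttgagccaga
These letters are frequent, at 35.2% of all windows, 37.2% of those of genes that rose and 32.3% of those of genes that fell. Matches are a description of the letters and do not show that a factor was bound.

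Ribosome biogenesis factors process ribosomal RNA and assemble subunits in the nucleolus. Of 84 tested, 57 rose and 0 fell, with a median log2 fold change of 0.90. Nop58, a core protein of box C/D small nucleolar particles, stood at 15.99 and 16.2 CPM in PBS livers and at 55.8 and 68.1 CPM after TAA (log2 fold change 1.94, approximate SE 0.16, adjusted p = 0.0031). Nucleolin Ncl stood at 192 and 167 CPM and at 369 and 415 CPM, and its adjusted p was 0.077 without PBS liver 1 and 0.112 without PBS liver 2. The calls of Mybbp1a, Nop58, Nhp2, Gar1 and Polr1e held in every leave-one-out fit. The higher count was 6 without either PBS liver, against 60 without TAA liver 1 and 38 without TAA liver 2. The host genes of small nucleolar RNAs named Snhg followed with 8 of 14 higher and 1 lower. Snhg1 rose from 8.4 and 6.7 CPM to 25.5 and 33.8 CPM, while Snhg11 fell from 34.6 and 24.8 CPM to 2.6 and 2.6 CPM (log2 fold change -3.53, approximate SE 0.24, adjusted p = 0.0025). The higher Snhg count was 2 without either PBS liver.

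The ribosome's own proteins moved less. Of 80 cytosolic ribosomal protein genes, 4 rose and 0 fell, below the background share, although TAA livers were both above PBS livers in 71 of them, as in 35.9% of all tested genes, and the median log2 fold change was 0.33. Their summed level was 15289 and 14373 CPM in PBS livers and 18507 and 19501 CPM after TAA. With libraries scaled by their totals alone, 31 of them were called higher. Rpl12 had the largest fold change of the 4, from 172 and 154 CPM to 264 and 274 CPM (log2 fold change 0.72, approximate SE 0.16, adjusted p = 0.0273), and its adjusted p was 0.128, 0.190 and 0.053 without PBS liver 1, PBS liver 2 and TAA liver 2. Of 23 aminoacyl-tRNA synthetases, which charge transfer RNAs, 14 rose and 0 fell, and Aars, for alanine, was not called at a log2 fold change of -0.14. The synthetase count dropped to 1 without PBS liver 1 and 0 without PBS liver 2. Of 54 translation factors, 21 rose and 5 fell. Eif6, which keeps ribosomal subunits apart and takes part in their assembly, rose from 41.6 and 36.3 CPM to 153 and 153 CPM and was the one translation factor whose call held in every leave-one-out fit. Eif4a1, the RNA helicase of initiation, rose from 184 and 161 CPM to 451 and 503 CPM (adjusted p = 0.0067, and 0.057 and 0.076 without PBS liver 1 and 2). Translation factor calls numbered 2 higher without either PBS liver. Splicing and RNA-binding genes had 15 of 52 higher and 0 lower, and 4 and 2 higher without PBS liver 1 and 2.

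**Figure D3:**
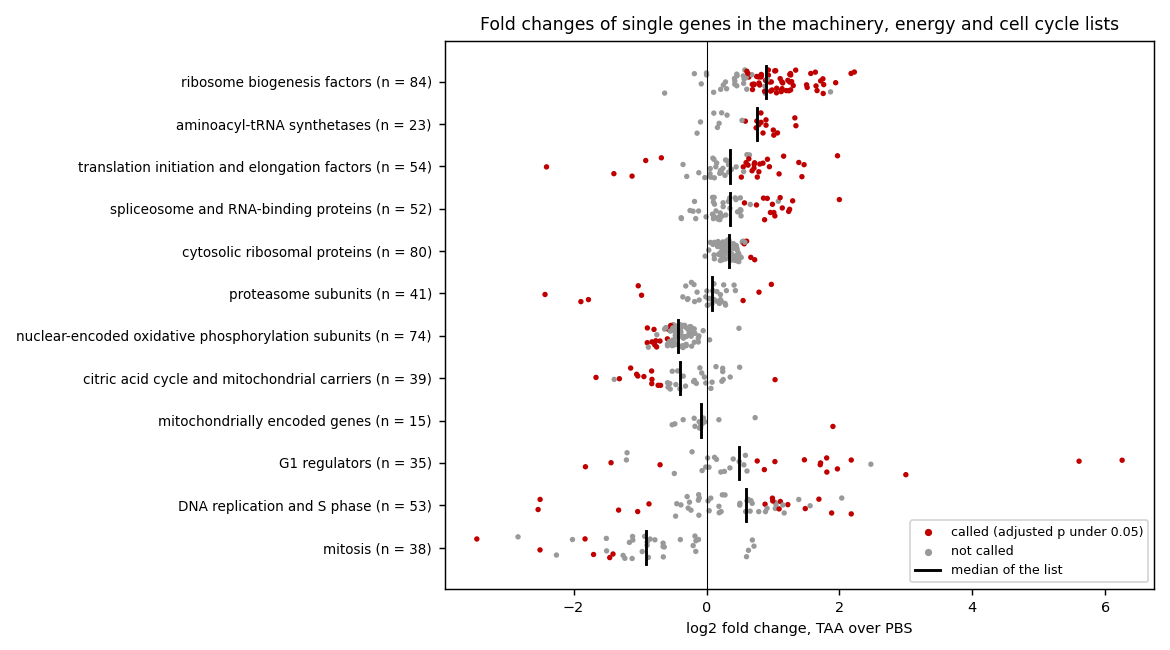
Log2 fold change, TAA over PBS (horizontal axis), of each tested gene in 12 lists of the synthesis, energy and cell cycle machinery. Red points passed the adjusted edgeR test, grey points did not, and the black bar is the median of the list, which was 0.90 for ribosome biogenesis factors, 0.33 for ribosomal proteins and -0.42 for nuclear-encoded oxidative phosphorylation subunits. Vertical position within a row is random.

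Nuclear-encoded subunits of oxidative phosphorylation had 0 of 74 higher and 11 lower, a share near the background, with a median log2 fold change of -0.42 and no value below -0.89. Both TAA livers lay below both PBS livers in 63 of the 74, as they did in 34.0% of all tested genes. Without PBS liver 1 or 2 none was called, and with library totals alone 4 were. A list of 15 mitochondrially encoded genes had a median of -0.09. Its summed level was 70858 and 78532 CPM in PBS livers and 71644 and 71211 CPM after TAA. Over all 34 tested genes of the mitochondrial genome, 2 rose and 8 fell, or 5.88% and 23.5%. The 1 call within the list of 15 was mt-Atp6, a subunit of ATP synthase. It stood at 1226 and 1213 CPM and then at 4664 and 4457 CPM (log2 fold change 1.90, approximate SE 0.22, adjusted p = 0.0055). This gene overlaps mt-Atp8, which stood at a log2 fold change of -0.09, and the call of mt-Atp6 was lost without PBS liver 1 or 2 (adjusted p = 0.061 and 0.071). Of 41 proteasome subunits 3 rose and 5 fell, and the members that fell included Psmb8 and Psmb10, subunits of the interferon-induced immunoproteasome, whose calls held in every leave-one-out fit. Psmb8 fell from 106 and 66.9 CPM to 22.4 and 24.1 CPM (log2 fold change -1.89, approximate SE 0.24, adjusted p = 0.0072).

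Cell cycle genes were counted by phase, and the phases were not tested against each other. Of 35 G1 regulators 13 rose and 3 fell, and the higher count was 5 without PBS liver 1 and 4 without PBS liver 2. Ccnd1, the cyclin that carries cells into the cycle, stood at 44.5 and 70.8 CPM in PBS livers and at 132 and 247 CPM in TAA livers (adjusted p = 0.0284, and 0.130, 0.083 and 0.053 without PBS liver 1, PBS liver 2 and TAA liver 2). Among 53 replication genes 10 rose and 5 fell. Mcm2, part of the replicative helicase, rose from 5.4 and 4.6 CPM to 12.7 and 19.5 CPM, with adjusted p values of 0.067 and 0.087 without PBS liver 1 and 2, while Tk1, thymidine kinase, fell from 27.7 and 34.2 CPM to 5.5 and 5.4 CPM (log2 fold change -2.50, approximate SE 0.19, adjusted p = 0.0030) and Mcm10 from 56.7 and 82.8 CPM to 11.1 and 12.9 CPM. The calls of Tk1 and Mcm10 held in every leave-one-out fit, whereas 0 replication genes were called higher without either PBS liver. Of 38 mitosis genes 0 rose and 6 fell, a share near the background of 13.8%, with Mki67, the proliferation antigen, at 12.3 and 8.9 CPM and then at 3.2 and 4.7 CPM (adjusted p = 0.0240). No mitosis gene was called lower without PBS liver 1, PBS liver 2 or TAA liver 1, and the adjusted p of Mki67 was then 0.117, 0.075 and 0.061. Mitosis genes were low, and their list summed to 118 and 98.7 CPM in PBS livers and to 68.8 and 79.0 CPM after TAA. The replication list summed to 489 and 513 CPM in PBS livers and to 458 and 641 CPM in TAA livers 1 and 2.

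**Figure D4:**
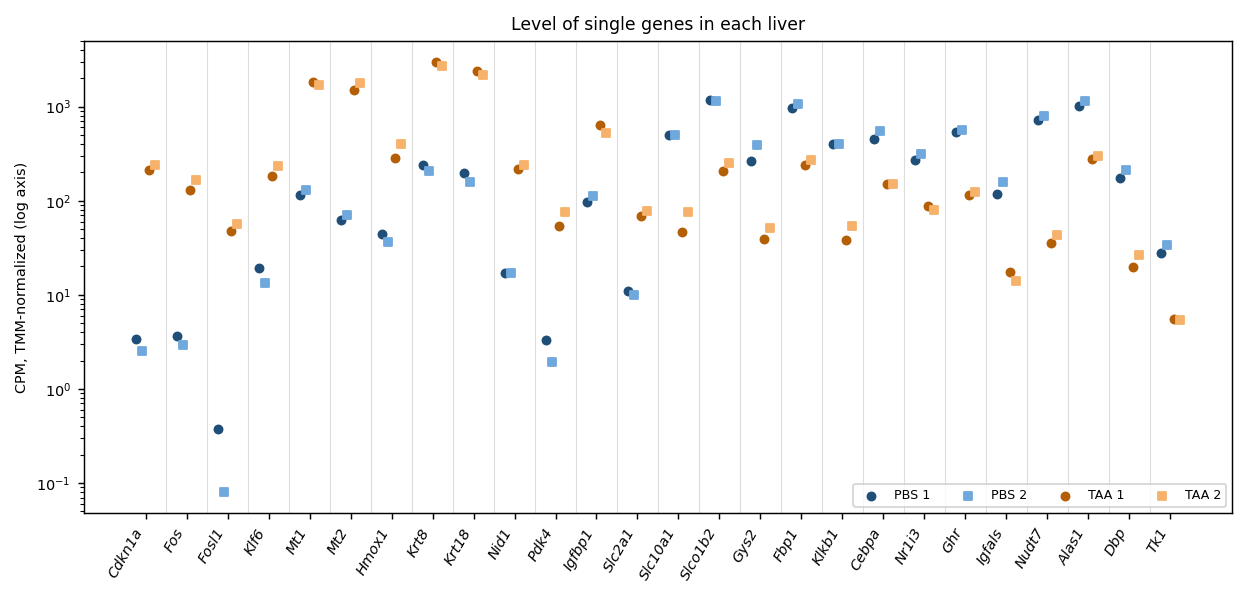
Level of 26 genes in each liver, in TMM-normalized CPM on a log axis. Dark and light blue are PBS livers 1 and 2, and dark and light orange are TAA livers 1 and 2. From Cdkn1a to Slc2a1 both TAA livers lie above both PBS livers, and from Slc10a1 to Tk1 both lie below. The genes were picked from those called, some after their values were seen, so this separation follows from the choice. Of all tested genes, 69.9% separate in this way.

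Of 54 membrane transporters of the hepatocyte, 35 fell and 2 rose, and the median log2 fold change was -1.40. Slc10a1, the sodium-dependent importer of bile acids, stood at 503 and 496 CPM in PBS livers and at 47.0 and 75.3 CPM after TAA (log2 fold change -3.03, approximate SE 0.28, adjusted p = 0.0036). The organic anion importer Slco1b2 fell from 1165 and 1134 CPM to 205 and 254 CPM, the amino acid importer Slc38a4 from 1251 and 1442 CPM to 356 and 325 CPM, and Abcg5, a subunit of the sterol exporter, from 170.3 and 152 CPM to 29.7 and 29.0 CPM. Slc16a1, a lactate transporter, rose from 39.0 and 38.5 CPM to 103 and 117 CPM. The bile salt export pump Abcb11, at 267 and 509 CPM in PBS livers and 71.5 and 202 CPM in TAA livers, was not called (adjusted p = 0.115). Of the 35 lower calls, 14 held in every leave-one-out fit, and the count was 20 without PBS liver 1 and 16 without PBS liver 2.

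One-carbon and amino acid metabolism had the largest share of lower genes among the metabolic lists, with 29 of 40 lower and 1 higher and a median of -1.48. Mat1a, which makes S-adenosylmethionine in hepatocytes, fell from 2629 and 2707 CPM to 869 and 816 CPM (adjusted p = 0.0066, and 0.053 and 0.065 without PBS liver 1 and 2). Mthfd2, a mitochondrial folate enzyme of growing cells, was the 1 member that rose, from 2.0 and 1.0 CPM to 6.8 and 12.9 CPM, and its call too was lost without either PBS liver (adjusted p = 0.052 and 0.086). The lower count was 13 without PBS liver 1 and 5 without PBS liver 2. In glucose and glycogen metabolism 12 of 26 fell and 0 rose. Gys2, liver glycogen synthase, stood at 261 and 391 CPM in PBS livers and at 38.9 and 51.1 CPM after TAA (log2 fold change -2.86, approximate SE 0.27, adjusted p = 0.0039), and Fbp1 of gluconeogenesis at 964 and 1072 CPM and then at 239 and 270.2 CPM. Those calls held in every leave-one-out fit, and the glucose count was 6 and 4 without PBS liver 1 and 2. Slc2a1, a glucose transporter scarce in resting hepatocytes, rose from 10.9 and 9.96 CPM to 69.0 and 77.9 CPM (log2 fold change 2.82, approximate SE 0.15, adjusted p = 0.0021). In the list of glycolysis isoforms low in hepatocytes, 5 of 18 rose and 1 fell, and the higher count was 1 without PBS liver 2.

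Lipid genes had losses with single large gains. Fatty acid oxidation genes fell in 15 of 32 cases and 1 rose, Pdk4, the kinase that shuts glucose out of the citric acid cycle, from 3.3 and 1.9 CPM to 54.5 and 75.1 CPM (log2 fold change 4.62, approximate SE 0.33, adjusted p = 0.0028). Acsl1, which activates long-chain fatty acids, fell from 551 and 915 CPM to 134 and 150 CPM (adjusted p = 0.0067). Of these 15, the count left was 4 without PBS liver 1 and 1 without PBS liver 2. Fatty acid synthesis genes fell in 14 of 27 cases and 0 rose, and Srebf1, their activator, fell from 268 and 195 CPM to 70.5 and 57.3 CPM. The 14 became 6 without PBS liver 1 and 4 without PBS liver 2. Scd1, the stearoyl desaturase, had 7666 and 6033 CPM in PBS livers and 1590 and 3560 CPM in TAA livers and was not called (adjusted p = 0.0627). Among lipid droplet and uptake genes, 5 of 23 rose and 10 fell. Hilpda, an inhibitor of droplet lipolysis, rose from 1.69 and 1.29 CPM to 32.2 and 31.1 CPM, and Plin2, the droplet coat, from 266 and 395 CPM to 785 and 803 CPM (adjusted p = 0.0201, and 0.119 and 0.068 without PBS liver 1 and 2).

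The lobule's zones were compared because TAA is oxidised mainly by pericentral hepatocytes. Pericentral genes fell in 15 of 29 cases and rose in 1, with a median log2 fold change of -1.71, and periportal genes fell in 14 of 26 and rose in 1, with a median of -1.17. The difference between the 2 lists was not tested. The summed pericentral level was 17044 and 18797 CPM in PBS livers and 3491 and 7178 CPM in TAA livers 1 and 2. The periportal sum was 21282 and 21539 CPM and then 11546 and 11848 CPM, so the TAA livers were further apart in the pericentral genes. Glul, glutamine synthetase of the innermost pericentral cells, stood at 1144 and 1060 CPM in PBS livers and at 65.5 and 199 CPM in TAA livers 1 and 2 (log2 fold change -3.06, approximate SE 0.55, adjusted p = 0.0176, and 0.072 and 0.080 without PBS liver 1 and 2). Lgr5, a receptor of the Wnt pathway in the same cells, fell from 9.13 and 7.97 CPM to 0.818 and 1.21 CPM. Gls2, the periportal glutaminase, fell from 209.8 and 292 CPM to 63.9 and 50.6 CPM (adjusted p = 0.0052), and the calls of both held in every leave-one-out fit. The pericentral count was 3 without either PBS liver and 24 without TAA liver 2, and the periportal count was 6 and 3 without PBS liver 1 and 2.

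The same spread between TAA livers was seen in drug metabolism. Cytochrome P450 genes of families that oxidise drugs and steroids summed to 21746 and 24594 CPM in PBS livers and to 7080.3 and 14893 CPM in TAA livers 1 and 2. Of 54 tested, 18 fell and 0 rose, against 33 lower without TAA liver 2, 4 without PBS liver 1 and 2 without PBS liver 2. Cyp3a11, at 642 and 1500.5 CPM in PBS livers and 769 and 3882 CPM in TAA livers, overlapped between the groups. Flavin monooxygenases and conjugating enzymes, taken as 1 list, fell in 26 of 56 cases and rose in 3, and fewer were called lower without PBS liver 1 or 2. Gsta1, a glutathione transferase, rose from 10.1 and 8.3 CPM to 115 and 229 CPM (log2 fold change 4.22, approximate SE 0.39, adjusted p = 0.0039), and Fmo1, a flavin monooxygenase, fell from 214 and 198 CPM to 66.9 and 74.3 CPM (adjusted p = 0.0044). Members of these families share long stretches of sequence, so counts of close copies are uncertain.

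Secreted proteins did not move as 1 group. Major urinary protein genes, among the most abundant in male mouse liver, had 0 of 19 members called in either direction, with a median log2 fold change of -0.19 and a summed level of 35473 and 40295 CPM in PBS livers and 29045 and 39326 CPM after TAA. Their near-identical copies share reads, so single members are uncertain. Among 37 plasma carriers 14 fell and 1 rose. Serpina6, the corticosteroid carrier, fell from 345 and 381 CPM to 14.9 and 31.3 CPM (log2 fold change -3.97, approximate SE 0.40, adjusted p = 0.0045), Igfals, which carries IGF1 in plasma, from 117 and 156 CPM to 17.7 and 14.1 CPM, and Igfbp1, another IGF carrier, rose from 96.4 and 111 CPM to 635 and 519 CPM. The carrier count was 3 lower without either PBS liver. The growth hormone receptor Ghr fell from 543 and 560 CPM to 114 and 125 CPM (adjusted p = 0.0031). Igf1 itself, at 566 and 597 CPM and then at 494 and 384 CPM, was not called.

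Coagulation genes moved in both directions. Of 38 tested, 9 rose and 16 fell. Klkb1, plasma prekallikrein, fell from 403 and 404 CPM to 38.5 and 53.4 CPM (log2 fold change -3.13, approximate SE 0.23, adjusted p = 0.0028), and Proz, the protein Z cofactor, from 486 and 541 CPM to 160 and 150 CPM. Thbd and Plaur, the receptors of thrombin and urokinase on cell surfaces, rose from 3.32 and 2.55 CPM to 23.7 and 39.2 CPM and from 2.06 and 1.99 CPM to 32.4 and 29.9 CPM. The counts higher and lower were 6 and 6 without PBS liver 1 and 4 and 3 without PBS liver 2. Complement genes fell in 16 of 36 cases and rose in 1, with 3 lower without either PBS liver, and C3 itself, at 10333 and 9424 CPM and then at 9978 and 7334 CPM, overlapped between the groups. Acute phase genes rose in 11 of 35 cases and 0 fell, although the Saa and Orm genes named above did not separate the groups. The acute phase count was 6 without PBS liver 1 and 4 without PBS liver 2.

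Among 49 transcription factors and nuclear receptors of hepatocytes, 18 fell and 3 rose. Cebpa, a factor of mature hepatocytes, stood at 451 and 544 CPM in PBS livers and at 150.3 and 149 CPM after TAA (log2 fold change -1.73, approximate SE 0.19, adjusted p = 0.0051). Nr1i3, the xenobiotic receptor CAR, fell from 272 and 309.9 CPM to 87.2 and 79.3 CPM. It shares 74.9% of its exonic bases with Tomm40l on the opposite strand. Hnf4a, the central hepatocyte factor, had 492 and 467 CPM and then 398 and 478 CPM, which overlap. Sox9, a factor of bile duct and injured hepatocytes, rose from 3.2 and 3.4 CPM to 57.0 and 32.6 CPM (adjusted p = 0.0032). The lower count was 7 without PBS liver 1 and 3 without PBS liver 2, and the calls of Cebpa, Nr1i3 and Sox9 held in every leave-one-out fit. Of 24 clock genes 9 fell and 4 rose. The output gene Dbp fell from 176 and 213 CPM to 19.5 and 26.3 CPM (log2 fold change -3.09, approximate SE 0.22, adjusted p = 0.0028), and Per3 from 91.5 and 89.5 CPM to 12.9 and 9.09 CPM, both in every leave-one-out fit. Arntl, whose protein drives the clock, rose from 1.1 and 1.7 CPM to 4.6 and 4.7 CPM, and was not called without PBS liver 1 or 2 (adjusted p = 0.086 and 0.062). The lower clock count was 5 and 6 without PBS liver 1 and 2.

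Actin regulators and actomyosin genes were higher in 30 of 55 cases and lower in 1, and Tpm4, a tropomyosin, rose from 26.9 and 20.5 CPM to 87.4 and 117 CPM (adjusted p = 0.0048). The higher count was 9 without PBS liver 1 and 5 without PBS liver 2. Of 19 tubulin genes 9 rose and 0 fell, and Tubb6 stood at 6.56 and 7.97 CPM in PBS livers and at 99.0 and 93.1 CPM after TAA (log2 fold change 3.72, approximate SE 0.17, adjusted p = 0.0017). The tubulin count was 5 without PBS liver 2. Of 30 targets of YAP, the mechanosensitive coactivator, 10 rose and 0 fell, with Cyr61, a secreted matrix-associated protein, at 10.1 and 9.0 CPM and then at 153 and 309 CPM (adjusted p = 0.0034). Leaving out PBS liver 1 or 2 left 6 and 5 higher YAP targets. Keratin, claudin and junction genes rose in 15 of 41 cases and fell in 2, and E-cadherin Cdh1 rose from 52.6 and 43.4 CPM to 171 and 182 CPM (adjusted p = 0.0035). Their higher count was 7 without PBS liver 1.

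Extracellular matrix and remodelling genes had 20 of 60 higher and 10 lower. Nid1, the basement membrane linker nidogen, stood at 17.01 and 17.1 CPM in PBS livers and at 215 and 239 CPM after TAA (log2 fold change 3.73, approximate SE 0.17, adjusted p = 0.0016). Thbs1, a matricellular protein, rose from 5.9 and 3.0 CPM to 109.7 and 119 CPM. The fibrillar collagen Col1a1, with 15.96 and 8.5 CPM and then 8.5 and 11.98 CPM, was not called, and Col3a1 fell from 50.03 and 42.2 CPM to 18.9 and 26.3 CPM (adjusted p = 0.0213, and 0.104 and 0.085 without PBS liver 1 and 2). The higher and lower counts were 10 and 2 without PBS liver 1 and 7 and 2 without PBS liver 2, and the lower count was 18 without TAA liver 2. Lysosomal and autophagy genes fell in 16 of 52 cases and rose in 6. Cd63, a tetraspanin of lysosomes and exosomes, rose from 7.6 and 5.7 CPM to 43.8 and 38.0 CPM (adjusted p = 0.0030), and Lamp2, a lysosomal membrane protein, fell from 610.4 and 668 CPM to 370 and 326 CPM (adjusted p = 0.0258, and 0.113, 0.164 and 0.062 without PBS liver 1, PBS liver 2 and TAA liver 2). Without PBS liver 1 and 2 the lysosomal counts were 2 and 1 lower.

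Interferon-inducible genes were lower across the list. They encode antiviral proteins and are switched on downstream of the interferon receptors, in part by IRF factors. Of 54 tested, 38 fell and 0 rose, with a median log2 fold change of -1.52, and both TAA livers lay below both PBS livers in 48 of 54 (34.0% of all tested genes do so). The control livers were unequal, with a summed level of 7427 and 3016 CPM in PBS livers 1 and 2 and of 1279 and 1392 CPM in TAA livers 1 and 2. Without PBS liver 1, 20 genes were called lower and 1 higher. The calls that held in every leave-one-out fit were 9, those of Irf7, Parp14, Ddx58, Ifit3, Ifit1, Xaf1, Ifit3b, Rtp4 and Ifi44. Irf7, the factor that amplifies type I interferon, stood at 116 and 137 CPM in PBS livers and at 28.0 and 38.1 CPM after TAA (log2 fold change -1.94, approximate SE 0.21, adjusted p = 0.0049). Ifit1, which binds viral RNA caps, fell from 42.7 and 29.6 CPM to 5.14 and 6.79 CPM, and Ifi44 from 26.8 and 20.2 CPM to 3.20 and 3.35 CPM. Lymphocyte markers summed to 222 and 179 CPM in PBS livers and 102 and 135 CPM after TAA, and their part in the result was not tested.

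**Figure D5:**
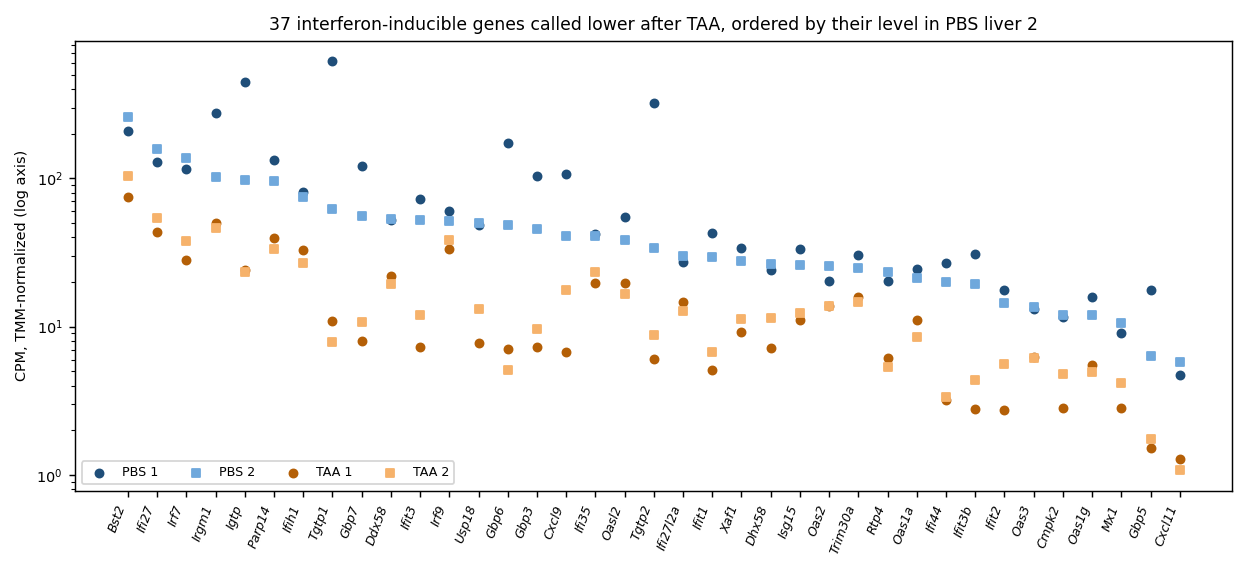
Level of 37 of the 38 interferon-inducible genes that fell after TAA, in TMM-normalized CPM on a log axis, ordered by their level in PBS liver 2. Dark and light blue are PBS livers 1 and 2, and dark and light orange are TAA livers 1 and 2. PBS liver 1 stands far above PBS liver 2 for some genes, among them Tgtp1 at 617 against 61.8 CPM, while for others, such as Irf7 at 116 and 137 CPM, the PBS livers are close and above both TAA livers.

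The window of Ifit3 is shown because it holds 2 interferon response elements, taken as GAAANNGAAA on either strand. Ifit3 stood at 72.6 and 52.2 CPM in PBS livers and at 7.29 and 12.003 CPM after TAA (log2 fold change -2.69, approximate SE 0.30, adjusted p = 0.0055). The window is at chr19:34583279-34583578 on the plus strand of GRCm38.p6, and both matches, in capitals, are on the minus strand.
Ifit3: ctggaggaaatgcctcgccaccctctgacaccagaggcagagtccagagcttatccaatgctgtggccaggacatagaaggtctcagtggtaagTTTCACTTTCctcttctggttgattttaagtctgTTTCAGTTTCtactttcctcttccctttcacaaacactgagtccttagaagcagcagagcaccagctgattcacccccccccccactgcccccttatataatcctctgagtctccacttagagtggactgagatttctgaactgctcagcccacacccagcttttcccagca
The element stood in 3.46% of all 8967 windows, in 6.37% of those of genes that fell and in 1.96% of those of genes that rose. This motif was chosen after the fall of interferon-inducible genes was seen, so the shares are a description.

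Antigen presentation genes fell in 20 of 33 cases and 0 rose, with a median of -1.33. The nonclassical class I gene H2-T23 stood at 412 and 408 CPM in PBS livers and at 108 and 128 CPM after TAA (log2 fold change -1.80, approximate SE 0.18, adjusted p = 0.0043). B2m, the shared light chain of class I molecules, fell from 2679 and 2679 CPM to 1612 and 1580.3 CPM (adjusted p = 0.0475, and 0.079 to 0.225 in the 4 leave-one-out fits). The class II gene H2-Aa, with 188 and 75.4 CPM and then 48.3 and 48.0 CPM, was not called. The count was 6 without PBS liver 1, and 5 calls held in every leave-one-out fit.

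Markers of other cell types moved apart from each other. Kupffer cell markers, of the resident macrophages, fell in 9 of 22 cases and rose in 3. Id3, whose call held in every leave-one-out fit, was among those that rose. Clec4f, which is specific to these cells in mouse liver, fell from 121 and 177 CPM to 67.2 and 69.3 CPM (adjusted p = 0.0188, and 0.092 and 0.053 without PBS liver 2 and TAA liver 1), and their summed level was 1403 and 1600.2 CPM in PBS livers and 1274 and 1247 CPM after TAA. Without PBS liver 1 and 2, 2 and 0 of them were lower, and with library totals in place of TMM 2 were. Markers of monocytes and infiltrating macrophages rose in 10 of 26 cases and fell in 1. Cd14, the endotoxin co-receptor, which hepatocytes can also express, rose from 5.8 and 5.1 CPM to 44.5 and 38.5 CPM (log2 fold change 2.93, approximate SE 0.18, adjusted p = 0.0023). Clec4d, a further marker of these cells, was also called higher, while Ly6c2 and Ccr2, which define inflammatory monocytes, were not called. The higher monocyte count was 6 without PBS liver 1 and 2 without PBS liver 2.

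Neutrophil markers rose in 9 of 24 cases and fell in 6. The receptor Csf3r rose from 8.1 and 9.9 CPM to 33.0 and 21.2 CPM (adjusted p = 0.0127, and 0.090 and 0.079 without PBS liver 1 and 2). S100a8, with 20.5 and 12.2 CPM and then 24.5 and 23.3 CPM, was not called. The granule genes of immature neutrophils fell, with Ngp at 18.6 and 16.5 CPM in PBS livers and 0.562 and 0.550 CPM after TAA (log2 fold change -4.97, approximate SE 0.24, adjusted p = 0.0018) and Ltf, lactoferrin, at 9.5 and 9.5 CPM and then at 0.4 and 0.3 CPM. Both held in every leave-one-out fit, and the higher count was 5 without PBS liver 1 and 1 without PBS liver 2.

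Stellate cell and fibroblast markers rose in 5 of 27 cases and fell in 9. Acta2, smooth muscle actin of activated stellate cells, rose from 1.4 and 0.8 CPM to 18.6 and 27.0 CPM (log2 fold change 4.37, approximate SE 0.39, adjusted p = 0.0035), and Lrat, which stores retinol in stellate cells, was not called. The lower count was 2 without PBS liver 1 and 0 without PBS liver 2. Sinusoidal endothelial markers fell in 6 of 32 cases and rose in 2, with 1 and 0 lower and 0 higher without PBS liver 1 and 2. Dnase1l3, a nuclease these cells secrete, fell from 40.8 and 51.4 CPM to 11.8 and 18.7 CPM (adjusted p = 0.0127), and Lyve1, a hyaluronan receptor, rose from 7.7 and 6.7 CPM to 23.2 and 37.8 CPM (adjusted p = 0.0076). Neither call remained without PBS liver 1 or 2, where adjusted p values were 0.052 to 0.084. Of 39 lymphocyte markers 5 fell and 2 rose, both shares below the background. The plasma cell transcripts Igkc and Jchain were the 2 whose lower calls held in every leave-one-out fit, and Igkc fell from 96.7 and 69.4 CPM to 31.7 and 33.3 CPM (adjusted p = 0.0093). Of 21 bile duct markers 3 rose (Sox9, Cldn4 and Ddr1) and 0 fell, and the call of Sox9 held in every leave-one-out fit, with 1 higher without either PBS liver. The keratins Krt19 and Krt7 stood at 1.2 and 0.7 CPM and 1.9 and 1.2 CPM in PBS livers, and neither was called.

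Scale mattered for the balance of the calls. TMM scaling gave 46.7% of the calls as higher, and scaling by library totals gave 63.4%, with 3029 higher and 1752 lower genes, or 18.0% and 10.4% of the genes tested, and the median log2 fold change of all tested genes moved by 0.20. Medians near 0 changed sign between these scalings, among them those of the clock genes (-0.01 and 0.19) and the metal, heme and iron genes (-0.06 and 0.16). The medians of the immediate early genes (1.99 and 2.19), ribosome biogenesis factors (0.90 and 1.10), transporters (-1.40 and -1.20) and interferon-inducible genes (-1.52 and -1.31) kept their sign. Without the low-count filter 6.32% of genes were called higher and 7.86% lower, and with the replicate number as a block the shares were 10.4% and 12.6%.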

How the data were processed

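Total RNA of the livers was sequenced, and per the labels the authors trimmed reads with Trim Galore, aligned them to GRCm38 (mm10) with HISAT2 and counted reads per gene with featureCounts. The deposited values are these raw read counts, with no normalization. Tool versions and the use of strand are not given in the sources used here. Counts of 35711238 to 41453751 per liver were fitted in edgeR 4.0.16 (R 4.3.3) after filterByExpr (minimum count 10, minimum total 15) with TMM scaling, the robust quasi-likelihood test and Benjamini-Hochberg adjustment over 16847 genes, and adjusted p values in the text come from this test unless named otherwise. The approximate SE was taken as the size of the log2 fold change over the root of the F statistic. CPM are TMM-normalized. With 2 livers a group, the p-values set the group difference against the spread between these livers, moderated by that of other genes. They cover only these livers.

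The gene lists and members were chosen with earlier results of these data known. Lists share members, so the same gene can count in several of them. Sox9, for example, is in the lists of hepatocyte transcription factors, YAP targets and bile duct markers. Named genes were the 10 of largest fold change and of largest CPM difference in each direction, genes with the largest ratio between livers, and in each list or family its key genes and the most abundant called ones. Named outside this rule, after their values were seen, were Ccdc85b, Fos, Dusp5, Bax, Ddit4, Tnfrsf10b, Slc7a11, Nhp2, Gar1, Polr1e, Eif6, mt-Atp8, Psmb10, Slco1b2, Abcg5, Srebf1, Hilpda, Lgr5, Serpina6, Igfals, Klkb1, Proz, Thbd, Plaur, Tomm40l, Per3, Tubb6, Parp14, Ddx58, Ifit3, Ifit1, Xaf1, Ifit3b, Rtp4, Ifi44 and H2-T23. Alternatives were other scalings and filters, no robust moderation, a replicate block, leaving out each liver, and DESeq2 1.42.0. The scripts were tested on simulated data. In the table, 27 gene names had been turned into dates, and these were replaced by the reference symbol of the gene ID where there was one. The table of fasted livers was not used. Some items are not reported here.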

Additional observations from a re-analysis of the deposited data

How the results depend on the processing

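The full comparison gave 2031 genes higher and 2317 lower, of which 1348 and 1603 changed more than 2-fold. Leaving out 1 liver gave 322 to 1498 higher and 415 to 1869 lower, and with the 2-fold limit 322 to 1169 higher and 415 to 1551 lower, the lowest without PBS liver 2. Library totals gave 3029 and 1752, RLE 1983 and 2346, no low-count filter 1662 and 2069, at least 1 CPM in 2 livers 2028 and 2274, no robust moderation 1991 and 2276, and DESeq2 2237 and 2610. No call of the full comparison was called with the opposite sign in any alternative. The log2 fold change of Hbb-bt, 1.05 and not called in the full comparison, was 1.90 without TAA liver 1 and -1.23 without TAA liver 2, and the cause was not tested. Over all genes, livers with the same number did not deviate together (r = 0.07), and the numbers were not taken as pairing. This r does not describe single groups of genes, and Saa1, Saa2 and Orm2 split by liver number in both groups. With the replicate block 1751 genes were higher and 2118 lower. Counts of single lists moved both ways under the block. Acute phase genes had 15 higher against 11, and integrated stress response targets 15 higher against 17. With 2 livers a group, single-gene values carry little information on spread.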
